A study of Mus musculus with 27 samples.

Results

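The 9 genes described here encode the subunits of the AMPA receptor (Gria1, Gria2, Gria3 and Gria4) and of the kainate receptor (Grik1, Grik2, Grik3, Grik4 and Grik5), the ionotropic glutamate receptors outside the NMDA and delta classes. They were chosen by symbol, and all 9 were found among the 31053 genes of the deposited matrices. Single-nucleus RNA-seq had been done on frozen hippocampi of 27 mice, with 1 library per mouse. The mice came from a cross of P301S tau transgenic mice, which carry mutant human tau under the mouse prion protein promoter, with Cgas-/- mice. Cgas encodes cGAS, a sensor of cytosolic DNA. With the transgene there were 6 mice of each Cgas genotype (P301S Cgas+/+, P301S Cgas+/- as heterozygotes and P301S Cgas-/-), 3 of either sex. Without it there were 5 Cgas+/+ mice, of which 3 were male, and 2 males each of Cgas+/- and Cgas-/-. The labels give no age and no treatment. The question taken up is where each subunit gene was read in the hippocampus, and whether its level differed with the tau transgene or with the copies of Cgas.

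AMPA and kainate receptors are cation channels of 4 subunits that open when glutamate binds. AMPA receptors carry most of the fast excitatory current at central synapses, and changes in their number at the postsynaptic membrane are a main expression of long-term potentiation and depression in the hippocampus. Subunit composition sets how a channel behaves: an AMPA receptor with an edited Gria2 subunit passes little calcium, while receptors without it pass calcium and are common on interneurons. Kainate receptors are built round Grik1, Grik2 and Grik3, which form channels by themselves, while Grik4 and Grik5 bind agonist with high affinity but need a partner from the first set. In the hippocampus kainate receptors are best known at mossy fibre synapses, which dentate granule cells make on CA3 pyramidal cells, and on interneurons.

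The stretch of coding sequence that matters most for these channels lies in the pore loop, where the adenosine deaminase Adarb1 edits a glutamine codon of the Gria2, Grik1 and Grik2 transcripts into one read as arginine. The sequences below are shown since this codon separates calcium-permeable from calcium-impermeable channels, and they are the genomic reading, before any editing. Each is 30 bases of coding sequence, 5′ to 3′ on the coding strand of GRCm38 with the GENCODE vM21 annotation, and the capitals mark the glutamine codon.

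Gria1: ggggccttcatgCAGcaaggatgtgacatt
Gria2: ggtgcctttatgCAGcaaggatgcgatatt
Gria3: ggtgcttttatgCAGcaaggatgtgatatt
Gria4: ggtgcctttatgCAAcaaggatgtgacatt
Grik1: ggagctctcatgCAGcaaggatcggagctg
Grik2: ggagctctcatgCAGcaaggttctgagctc
Grik3: ggctccctgatgCAGcaaggatctgaactg
Grik4: ggaggcttcatgCAGcaaggctccactatt
Grik5: ggtggcttcatgCAGcagggctcggagatc

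All 9 genes carry a glutamine codon there, CAG in 8 and CAA in Gria4. The windows of Gria2 and Gria3 differ at 2 of the 30 bases, and those of Grik1 and Grik2 at 3. The most distant pair, Grik3 and Grik4, differs at 12 bases. The Gria2 codon lies in exon 11 of 16, at chr3:80706911-80706913 on the minus strand. The codons of Grik1 (chr16:87940542-87940544, exon 13 of 18) and Grik2 (chr10:49244329-49244331, exon 12 of 16) are also on the minus strand, and their windows run across an exon junction. UMI counts per gene do not record the edited base, so editing could not be read here.

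The libraries held 241938 barcodes, of which 204852 were kept as single nuclei, 5840 to 12572 per mouse, with 46091490 to 79484316 UMIs per library before filtering. The 9 subunits gave 199949 to 451279 UMIs per mouse, or 0.544 to 0.896% of all UMIs in kept nuclei. Nuclei were clustered without the 9 genes and the related genes listed further on, and clusters were named from fixed markers as excitatory neuron-like (80177 nuclei, 1402 to 5089 per mouse), inhibitory neuron-like (12519 nuclei, 121 to 842), astrocyte-like, oligodendrocyte-like and so on. For most of the broad classes checked the markers set the class well apart: the summed marker level in inhibitory neuron-like nuclei was 13.8 times that of the next class, and in microglia-like nuclei 151 times. For excitatory neuron-like nuclei this ratio was 2.39, the lowest of the broad classes checked. The neuron subtypes were not checked by this ratio. Any 2 libraries shared 8 to 48 barcode sequences, at most 0.570% of the smaller library.

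Several libraries stood apart in the make-up of their neurons. The cortical-like share of the excitatory neuron-like nuclei ran from 2.998% to 78.6% over the mice. Its median was 17.9% in P301S Cgas+/+ (4.53 to 65.7%), 48.5% in P301S Cgas+/- (30.7 to 73.4%) and 51.0% in P301S Cgas-/- (32.0 to 78.6%), and in Cgas+/+ mice it was 23.4, 11.95, 51.7, 37.2 and 33.9%. P301S Cgas+/- replicate 1 held 96 hippocampal-like nuclei, P301S Cgas-/- replicate 2 held 16 dentate granule-like nuclei, and P301S Cgas+/+ replicate 3 had 4290 of its 8724 nuclei in unnamed clusters. The Cgas transcript did not separate the genotypes: the libraries labelled P301S Cgas-/- held 1.28 to 2.76 CPM over all nuclei and those labelled P301S Cgas+/+ 1.40 to 3.78 CPM. Where in the gene the deleted stretch lies cannot be read from these counts, so the genotype rests on the labels. The file headers name software version 3.0.2 for 12 libraries, all of males, and 3.1.0 for the other 15, of 11 females and 4 males.

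Levels are given as CPM, the UMIs of a gene per 1000000 UMIs summed over the nuclei of a class in a mouse, and a class level is the median over mice with its lowest and highest mouse. CPM may be compared between classes for a gene, but not between genes, since nuclear 3′ libraries count unspliced RNA and long genes collect more UMIs. In such sums, fewer nuclei of a subtype within a class and less RNA per nucleus cannot be told apart. Classes with at least 10 nuclei in a mouse were used.

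Gria1 (ENSMUSG00000020524, chr11:57011387-57330244, plus strand, 318.858 kb) encodes the subunit that is inserted at potentiated synapses. It was read highest in hippocampal pyramidal-like nuclei. Its level was 5438 CPM in CA1-like nuclei (4326 to 6505, n = 27), 4858 CPM in CA3-like nuclei (3751 to 5730, n = 22 mice with enough nuclei) and 4402 CPM in dentate granule-like nuclei (3295 to 5450, n = 27). Somatostatin (Sst)-like and parvalbumin (Pvalb)-like interneuron nuclei followed at 4169 CPM (3020 to 7243, n = 26) and 4023 CPM (2944 to 7287, n = 27), and each of these neighbours in the order overlapped the next in range. A gap came below them: Cck-like (1686 CPM), Lamp5-like (1152 CPM) and Vip-like interneurons (1035 CPM, 667 to 1521) and cortical-like excitatory nuclei (843 CPM, 456 to 1425) were all lower. In each of 27 mice Gria1 was higher in CA1-like than in cortical-like nuclei, with a median ratio of 6.65, and higher in Pvalb-like than in Vip-like nuclei, with a median ratio of 3.90.

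Gria2 (ENSMUSG00000033981, chr3:80681450-80802835, minus strand, 121.386 kb) encodes the subunit that blocks calcium entry once edited. It was read in every neuron class, from 1789 CPM in CA1-like nuclei (1551 to 2109) to 675 CPM in Pvalb-like nuclei (547 to 851). The hippocampal principal classes did not separate from each other, with 1695 CPM in CA3-like and 1629 CPM in dentate granule-like nuclei. Cortical-like nuclei (1134 CPM, 1006 to 1451) lay between them and the interneurons. Astrocyte-like nuclei read 1355 CPM (875 to 1772) and oligodendrocyte progenitor-like nuclei 1039 CPM, levels within the range of the cortical-like neurons.

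Gria3 (ENSMUSG00000001986, chrX:41400854-41678601, plus strand, 277.748 kb), the X-linked partner that commonly pairs with Gria2, was read at 1039 CPM in Sst-like, 1010 CPM in CA1-like, 972 CPM in Pvalb-like and 916 CPM in cortical-like nuclei (435 to 1182), which overlapped. It was nearly missing from some interneurons: Vip-like nuclei had 109 CPM (48.4 to 259) and Cck-like nuclei 160 CPM. The Sst-like level was above the Vip-like level in 26 of 26 mice, with a median ratio of 9.34.

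Gria4 (ENSMUSG00000025892, chr9:4417896-4796234, minus strand, 378.339 kb) encodes a subunit with fast kinetics that is known from interneurons and from immature synapses. Pvalb-like nuclei were highest, at 2136 CPM (1741 to 2985), and lay above Lamp5-like nuclei (1628 CPM) in 26 of 26 mice although the ranges overlapped. Sst-like nuclei (1551 CPM), oligodendrocyte progenitor-like nuclei (1090 CPM, 705 to 1197) and Vip-like nuclei (1022 CPM) came next. Among excitatory nuclei, Gria4 set cortical-like neurons (882 CPM, 552 to 1543) apart from CA1-like (227 CPM), dentate granule-like (207 CPM, 143 to 330) and CA3-like ones (202 CPM). The cortical-like level exceeded the dentate granule-like level in 27 of 27 mice, by a median ratio of 4.20.

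**Figure D1:**
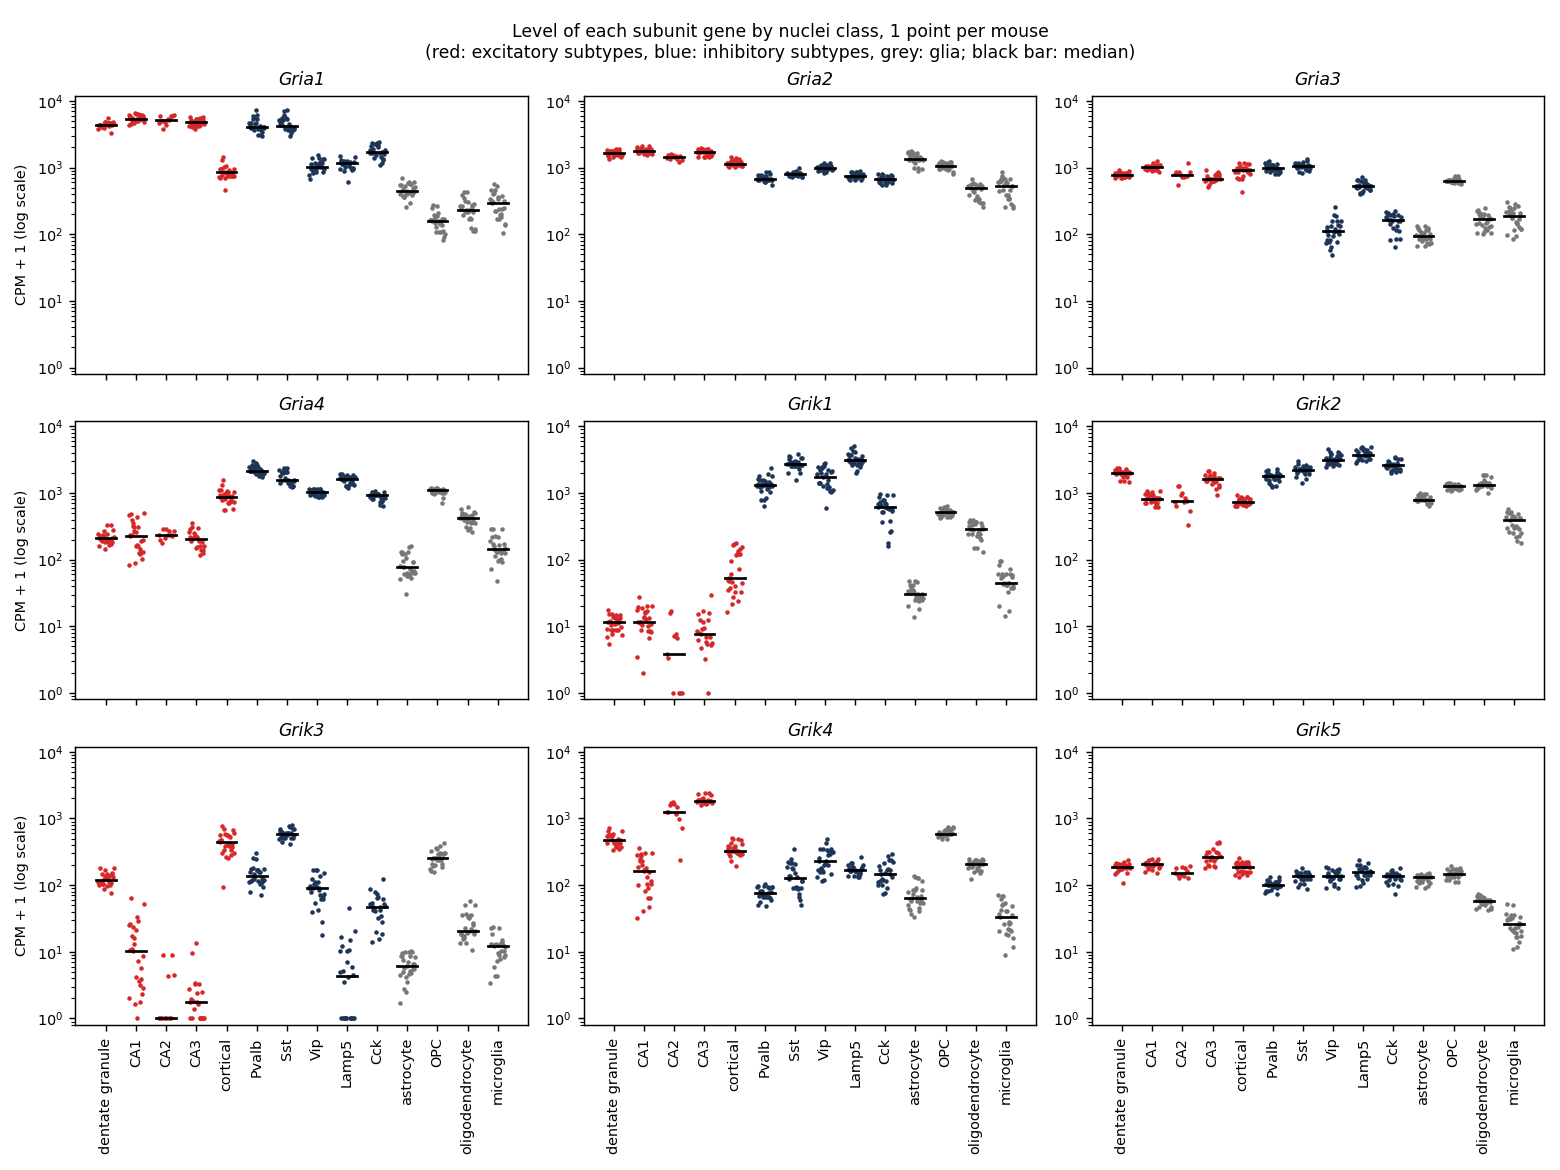
UMIs per 1000000 UMIs (CPM + 1, log axis) of each subunit gene in 14 classes of nuclei, with 1 point per mouse and a bar at the median over mice; excitatory subtypes are red, inhibitory subtypes blue and glia grey. Grik1 sits at 10.5 to 10.7 CPM in CA1-like and dentate granule-like nuclei against 1315 to 3096 CPM in Pvalb-, Vip-, Sst- and Lamp5-like nuclei, and Grik4 is highest in CA3-like nuclei at 1843 CPM.

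Grik1 (ENSMUSG00000022935, chr16:87895900-88290265, minus strand, 394.366 kb), the kainate subunit known from hippocampal interneurons, was read mainly in inhibitory nuclei. It reached 3096 CPM in Lamp5-like (1968 to 5044, n = 26), 2698 CPM in Sst-like (1559 to 3861), 1747 CPM in Vip-like and 1315 CPM in Pvalb-like nuclei (642 to 2350), whose ranges overlapped in turn. Cck-like nuclei were lower, at 606 CPM (159 to 978, n = 25), and their lowest mouse lay within the range of cortical-like nuclei. Hippocampal excitatory nuclei were close to empty, with 10.7 CPM in dentate granule-like, 10.5 CPM in CA1-like and 6.76 CPM in CA3-like nuclei. Cortical-like nuclei held 51.3 CPM (15.4 to 178) and were above dentate granule-like nuclei in 27 of 27 mice, by a median ratio of 5.98. Over the whole neuron classes Grik1 was higher in inhibitory than in excitatory nuclei in 27 of 27 mice, by a median ratio of 65.5.

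The Grik1 level in excitatory nuclei was near the level that interneuron markers had there. The excitatory level was 1.53% of the inhibitory level in the same mouse (median, 0.610 to 10.7%), while the interneuron genes Gad1, Gad2 and Slc32a1 stood at 3.14, 0.504 and 0.599% of theirs. Grik1 was above every inhibitory marker in 11 of 27 mice.

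Grik2 (ENSMUSG00000056073, chr10:49094833-49788766, minus strand, 693.934 kb), the main channel-forming kainate subunit of the mossy fibre pathway, was read in every neuron class. Lamp5-like (3704 CPM), Vip-like (3145 CPM) and Cck-like nuclei (2604 CPM) led, followed by Sst-like (2234 CPM) and dentate granule-like nuclei (2016 CPM, 1476 to 2397). Among principal neurons the dentate granule-like and CA3-like levels (1627 CPM, 937 to 2170) overlapped, and both were above CA1-like (819 CPM, 607 to 1082) and cortical-like nuclei (734 CPM). CA3-like nuclei exceeded CA1-like nuclei in 22 of 22 mice, by a median ratio of 1.98 for Grik2.

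Grik3 (ENSMUSG00000001985, chr4:125490700-125714173, plus strand, 223.474 kb) encodes a low-affinity kainate subunit. It was read mainly in Sst-like (579 CPM, 417 to 789) and cortical-like nuclei (448 CPM, 91.6 to 764), and at 257 CPM in oligodendrocyte progenitor-like nuclei. Dentate granule-like nuclei held 118 CPM, CA1-like nuclei 9.25 CPM (0 to 63.0) and CA3-like nuclei 0.773 CPM. Within the interneurons the Sst-like level of Grik3 was above the Pvalb-like level (136 CPM) in 26 of 26 mice, by a median ratio of 4.30.

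Grik4 (ENSMUSG00000032017, chr9:42518135-42944493, minus strand, 426.359 kb) encodes a high-affinity partner subunit, long known from CA3. CA3-like nuclei were highest at 1843 CPM (1603 to 2439), above CA1-like nuclei (164 CPM, 31.5 to 359) in 22 of 22 mice by a median ratio of 12.4 and above dentate granule-like nuclei (468 CPM, 335 to 727) in 22 of 22 by 3.91. CA2-like nuclei, counted in 11 mice with 10 to 65 such nuclei each, came next at 1264 CPM (239 to 1744), and their lowest values, 239 and 723 CPM, were those of the 2 P301S Cgas-/- mice. These 2 values rest on 30 UMIs from 11 nuclei and 203 UMIs from 24 nuclei, and the groups were not tested in CA2-like nuclei. Pvalb-like nuclei had 74.5 CPM (47.8 to 103), the lowest Grik4 level of the tested neuron subtypes. The CA3-like level stayed within a narrow band in every group: the 5 Cgas+/+ mice read 1767, 1902, 2308, 1904 and 1814 CPM, the 5 P301S Cgas+/+ mice with enough nuclei 1833, 1690, 2439, 1669 and 1818 CPM, and the 3 P301S Cgas-/- mice with enough nuclei 2238, 1823 and 1703 CPM.

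Grik5 (ENSMUSG00000003378, chr7:25009849-25072346, minus strand, 62.498 kb), the other high-affinity partner and the shortest of the genes, was read across neurons: 263 CPM in CA3-like (181 to 446), 203 CPM in CA1-like, 188 CPM in both dentate granule-like and cortical-like, and 99.2 CPM in Pvalb-like nuclei. Neighbouring classes in this order overlapped. CA3-like nuclei still exceeded dentate granule-like nuclei in 22 of 22 mice, by a median ratio of 1.37 for Grik5.

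The make-up of each family within a nucleus class shows the same contrasts on a scale of shares, as percent of the UMIs of its 4 or 5 subunits. Gria2 gave 24.6 ± 2.41% (median ± SD over 27 mice) of AMPA subunit UMIs in excitatory and 10.7 ± 1.93% in inhibitory neuron-like nuclei, and 8.50% in Pvalb-like, 10.1% in Sst-like, 18.97% in Lamp5-like and 30.4% in Vip-like nuclei. Divided by gene span in kilobases, the Gria2 shares became 45.9% in excitatory, 24.5% in inhibitory, 20.1% in Pvalb-like and 55.4% in Vip-like nuclei. The order of these 4 classes was the same on both scales, while Gria2 moved from second to first place among the excitatory AMPA subunits because its gene is the shortest of the 4. Its exons are the longest of the 4 (15.548 kb, against 6.043 kb for Gria1), so this place depends on the length used. Gria1 made up 64.2% in CA1-like and 21.3% in cortical-like nuclei, and Gria4 39.6% in Lamp5-like and 2.54% in CA1-like nuclei, without the division.

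Among kainate subunits, Grik2 held 71.2% of UMIs in dentate granule-like and 66.7% in CA1-like nuclei, Grik4 49.99% in CA3-like nuclei, and Grik1 46.5% in Sst-like nuclei. In cortical-like nuclei Grik3 took 24.3%. Per kilobase of gene span, Grik5 was the leading kainate subunit in CA1-like nuclei at 67.3%, and Grik4 and Grik5 stood at 39.8% and 40.1% in CA3-like nuclei. Dividing by exon length instead gave Grik4 63.99% and Grik5 11.1% there, so which gene leads within CA3-like nuclei depends on the length used.

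**Figure D2:**
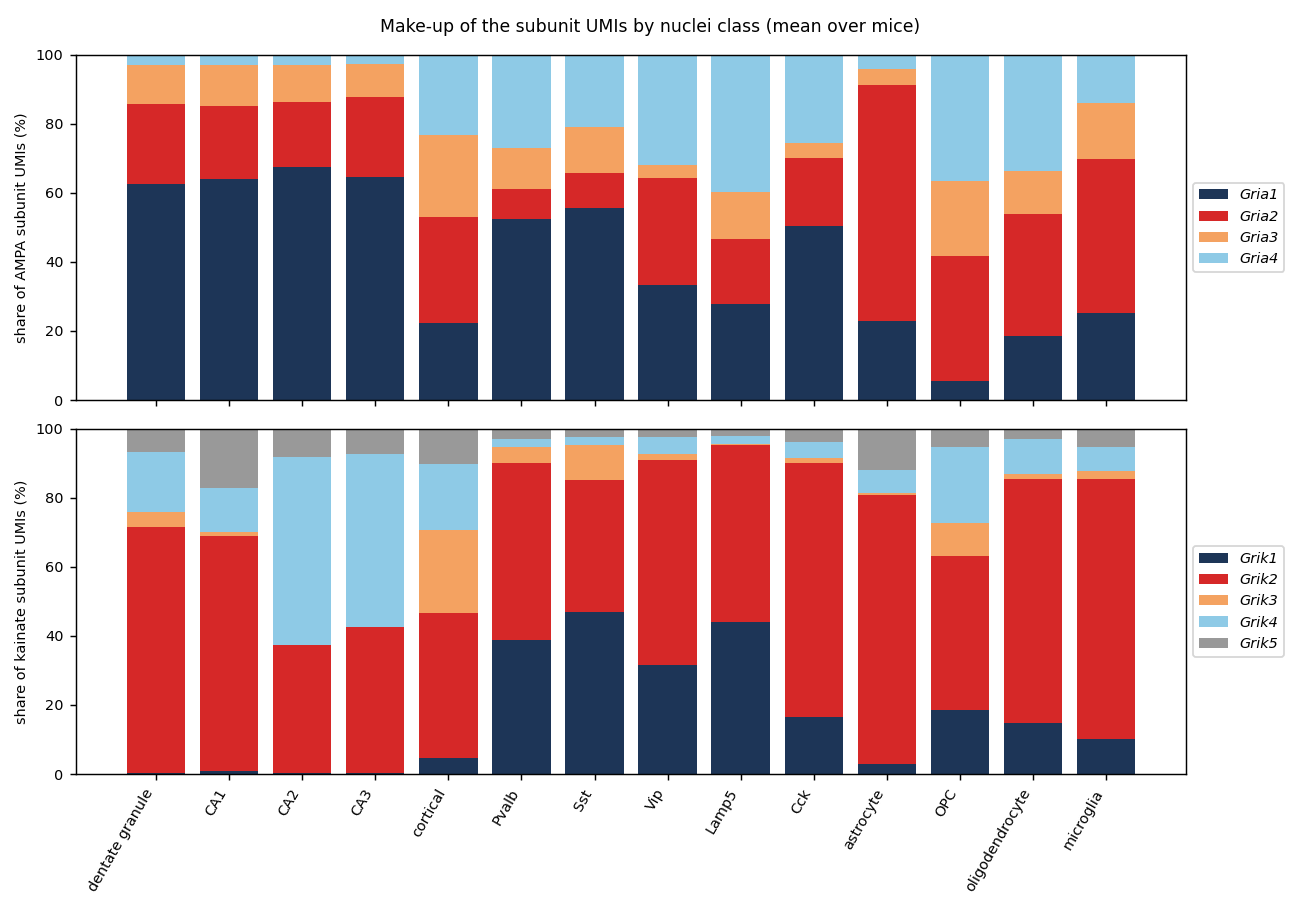
Share of each subunit in the AMPA (4 genes) and kainate (5 genes) subunit UMIs of 14 classes of nuclei, as stacked bars of the mean over mice in percent. Among UMIs not divided by gene length, Gria2 is the smallest AMPA share in Pvalb-like nuclei (8.50%, median; 20.1% per kilobase of gene, above Gria3 at 12.4%) and the largest in astrocyte-like nuclei (67.4%, median), Grik1 is nearly missing from hippocampal excitatory nuclei, and Grik1 takes a larger share in the interneuron subtypes.

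Some subunits in glia-like nuclei stood above the level that neuron markers had there. Neuronal RNA released from broken nuclei puts some UMIs in every droplet, so each subunit was set against neuron markers within the mouse: a subunit was counted where its level, as a percent of the neuronal level, was above that of every neuron marker, in all mice. In oligodendrocyte progenitor-like nuclei 7 of the 9 subunits met this, all but Gria1 and Grik1 (158 and 511 CPM). Grik1 was there above every excitatory marker in 27 of 27 mice and above every inhibitory marker in 14, while Gria1 was so in 0 for either. For Grik1 the excitatory markers decide little in any class, since its excitatory level was itself low. In microglia-like nuclei Grik1 was also above all of them in 27 of 27 mice, but above every inhibitory marker in 1. Astrocyte-like nuclei met it for Gria2, Grik2 (795 CPM) and Grik5 (131 CPM), and oligodendrocyte-like nuclei for Gria4 (419 CPM), Grik1 (285 CPM) and Grik2 (1328 CPM). Microglia-like nuclei met it for 0 subunits, although Gria2 was there above every inhibitory marker in 27 of 27 mice and above every excitatory marker in 15. In astrocyte-like nuclei Gria2 made up 67.4% of AMPA subunit UMIs and Grik2 77.6% of kainate subunit UMIs.

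The 3 genes whose level followed a subunit most closely over 23 classes of nuclei, among 16490 genes, are given for each subunit but Grik5 with Pearson's r of the log2 class levels, which share libraries and depth. For Gria1 these were Epha6 (0.93), Dlgap2 (0.92) and Grin1 (0.91), the obligatory NMDA receptor subunit. For Gria2 they were Lsamp, Nrcam and 2900011O08Rik, with 0.85 to 0.87. Grm5, a metabotropic glutamate receptor, and Rbfox1 and Kcnd2 were nearest to Gria3, with 0.85 to 0.90, and Pcsk1n, A230057D06Rik and A330102I10Rik nearest to Gria4, with 0.84 to 0.89. Among the kainate subunits, Alk, Grin2d, an NMDA receptor subunit known from interneurons, and Vwc2 were nearest to Grik1 (0.86 to 0.90), and Tmem132b, Epb41l4b and Pak3 to Grik2 (0.84 to 0.89). The values were lower for Grik3 with Brinp3, Cdh13 and Lrrtm3 (0.81 to 0.84) and for Grik4 with Csmd2, Ppp1r14c and Ephb2 (0.78 to 0.79). Between the 9 subunits themselves the closest pair was Gria4 and Grik1, at 0.71.

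The groups were compared with edgeR's quasi-likelihood test on UMIs summed per mouse and class, over 23 mice with sex as a covariate, in 13 classes. There were 3 contrasts. The tau contrast set P301S Cgas+/+ mice against those without the transgene. Within the transgenic mice, the deletion contrast compared Cgas-/- and the heterozygous contrast Cgas+/- animals with the same P301S Cgas+/+ mice, which all 3 contrasts share. Grik3 was under the count filter in CA3-like and Lamp5-like nuclei, which left 115 pairs of a subunit and a class per contrast. P-values were Benjamini-Hochberg adjusted over all genes of a class, and a gene was called at an adjusted p of 0.05.

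In the tau contrast 0 of 115 pairs were called, by edgeR as by DESeq2. All genes were called at 0.0236% in excitatory, 0.00787% in inhibitory, 0.00783% in dentate granule-like, 0.00822% in CA1-like, 0.0122% in CA3-like, 0.0132% in cortical-like, 0.0112% in Sst-like, 0.00771% in astrocyte-like, 0.0233% in oligodendrocyte progenitor-like and 0.00804% in oligodendrocyte-like nuclei, and at 0% in Pvalb-, Vip- and Lamp5-like nuclei. At an unadjusted p under 0.05 stood 1 of the 115 pairs (0.870%), against 4.13% of all gene and class pairs. That pair was Grik2 in oligodendrocyte-like nuclei, with a median of 1187 CPM in Cgas+/+ (1124 to 1375) and 1474 CPM in P301S Cgas+/+ mice (1277 to 1888). The groups overlapped, and the log2 fold change was 0.38 ± 0.141 (SE; edgeR adjusted p = 0.688).

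In neurons the tau contrast left the leading AMPA subunits of interneurons in overlapping ranges. In inhibitory nuclei Gria1 was 4286, 4384, 3765, 3918 and 4843 CPM in the 5 Cgas+/+ mice and 3607 to 5213 CPM (median 4250) in P301S Cgas+/+ mice, and the log2 fold change was 0.05 ± 0.145 (edgeR adjusted p = 1.0). Gria4 was 2049, 1652, 1666, 1690 and 1908 CPM against 1333 to 2010 CPM (median 1822), with a log2 fold change of 0.01 ± 0.123. For both genes the 2 groups covered nearly the same range. In excitatory nuclei the Gria4 fold was wider, at -0.43 ± 0.285 on the log2 scale (edgeR adjusted p = 0.9997). The other excitatory log2 fold changes of the tau contrast were 0.27 for Gria1, 0.11 for Gria2, 0.06 for Gria3, -0.23 for Grik1, 0.02 for Grik2, -0.38 for Grik3, -0.17 for Grik4 and 0.03 for Grik5. In inhibitory nuclei the 9 subunits lay between -0.11 (Grik1) and 0.16 (Grik4).

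In the deletion contrast 0 of 115 pairs were called by edgeR, and 22 (19.1%) had an unadjusted p under 0.05 against 5.82% of all pairs. All genes were called at 0% in every class but Pvalb-like (0.0213%). The heterozygous contrast gave 0 calls and 19 pairs (16.5%) at an unadjusted p under 0.05 against 5.74% of all pairs, with 0.00787% of genes called in inhibitory and 0.0106% in Pvalb-like nuclei and 0% elsewhere. DESeq2 called the same 3 pairs in each of these contrasts: Grik1 in excitatory, Gria1 in Pvalb-like and Grik4 in Sst-like nuclei. In these classes DESeq2 called 0.771, 1.15 and 0.304% of all genes for the deletion and 0.987, 0.683 and 0.453% for the heterozygous contrast. The 22 pairs are not 22 separate events, since the subtypes are parts of the neuron classes, and in excitatory nuclei 13.97% of all genes had an unadjusted p under 0.05 in the deletion contrast. The median log2 fold change of the subunits was -0.14 in excitatory and -0.08 in inhibitory nuclei for the deletion, against 0.01 over all genes in both.

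Grik1 in excitatory neuron-like nuclei had the largest log2 fold change of the 115 pairs in both contrasts. Its levels were 21.01, 14.6, 52.1, 32.1 and 37.0 CPM in Cgas+/+ mice, 24.2 and 16.8 CPM in Cgas+/- and 13.3 and 13.4 CPM in Cgas-/- mice. With the transgene they ran from 15.2 to 44.0 CPM (median 26.6) in P301S Cgas+/+, from 31.6 to 127 CPM (median 77.3) in P301S Cgas+/- and from 26.0 to 117 CPM (median 67.9) in P301S Cgas-/- mice. The P301S groups with fewer Cgas copies reached far higher, though their lowest mice overlapped P301S Cgas+/+. The log2 fold change was 1.29 ± 0.335 for the deletion (edgeR adjusted p = 0.187, DESeq2 0.0312) and 1.42 ± 0.336 for the heterozygous contrast (edgeR adjusted p = 0.158, DESeq2 0.0135). An exact two-sided permutation test over the mice gave p = 0.0108 for the deletion and 0.00649 for the heterozygous contrast. It was run 74 times, on pairs with an unadjusted edgeR p under 0.05 in the same mice and on Gria4. A small permutation p was therefore likely beforehand for Grik1 and is not separate support. Adjusted over the 74 tests, the permutation p was 0.0890 and 0.0801.

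The same groups differed in their cortical-like share, and Grik1 was read higher in cortical-like than in hippocampal-like excitatory nuclei. With the cortical-like share as a covariate the Grik1 fold was 0.55 on the log2 scale for the deletion and 0.66 for the heterozygous contrast, and within hippocampal-like excitatory nuclei it was 0.01 and 0.05. In cortical-like nuclei taken alone, Grik1 ran from 26.9 to 174 CPM (median 42.4) in P301S Cgas+/+, 23.2 to 178 CPM (median 119) in P301S Cgas+/- and 31.8 to 152 CPM (median 96.3) in P301S Cgas-/- mice, which overlapped throughout. Leaving out any 1 mouse kept the pooled deletion fold of Grik1 between 1.17 and 1.46. The summed level of 6 inhibitory markers in the same excitatory nuclei was 11.8 to 32.95 CPM in P301S Cgas+/+ (median 17.3), 12.9 to 21.9 CPM in P301S Cgas+/- (median 15.5) and 5.64 to 18.96 CPM in P301S Cgas-/- mice (median 11.8), with 0 markers at 0. In the same order of groups, 8 astrocyte markers had summed medians of 584, 721.5 and 675 CPM and 8 oligodendrocyte markers of 162, 144 and 148 CPM. The part of any of these markers in the Grik1 values was not tested.

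**Figure D3:**
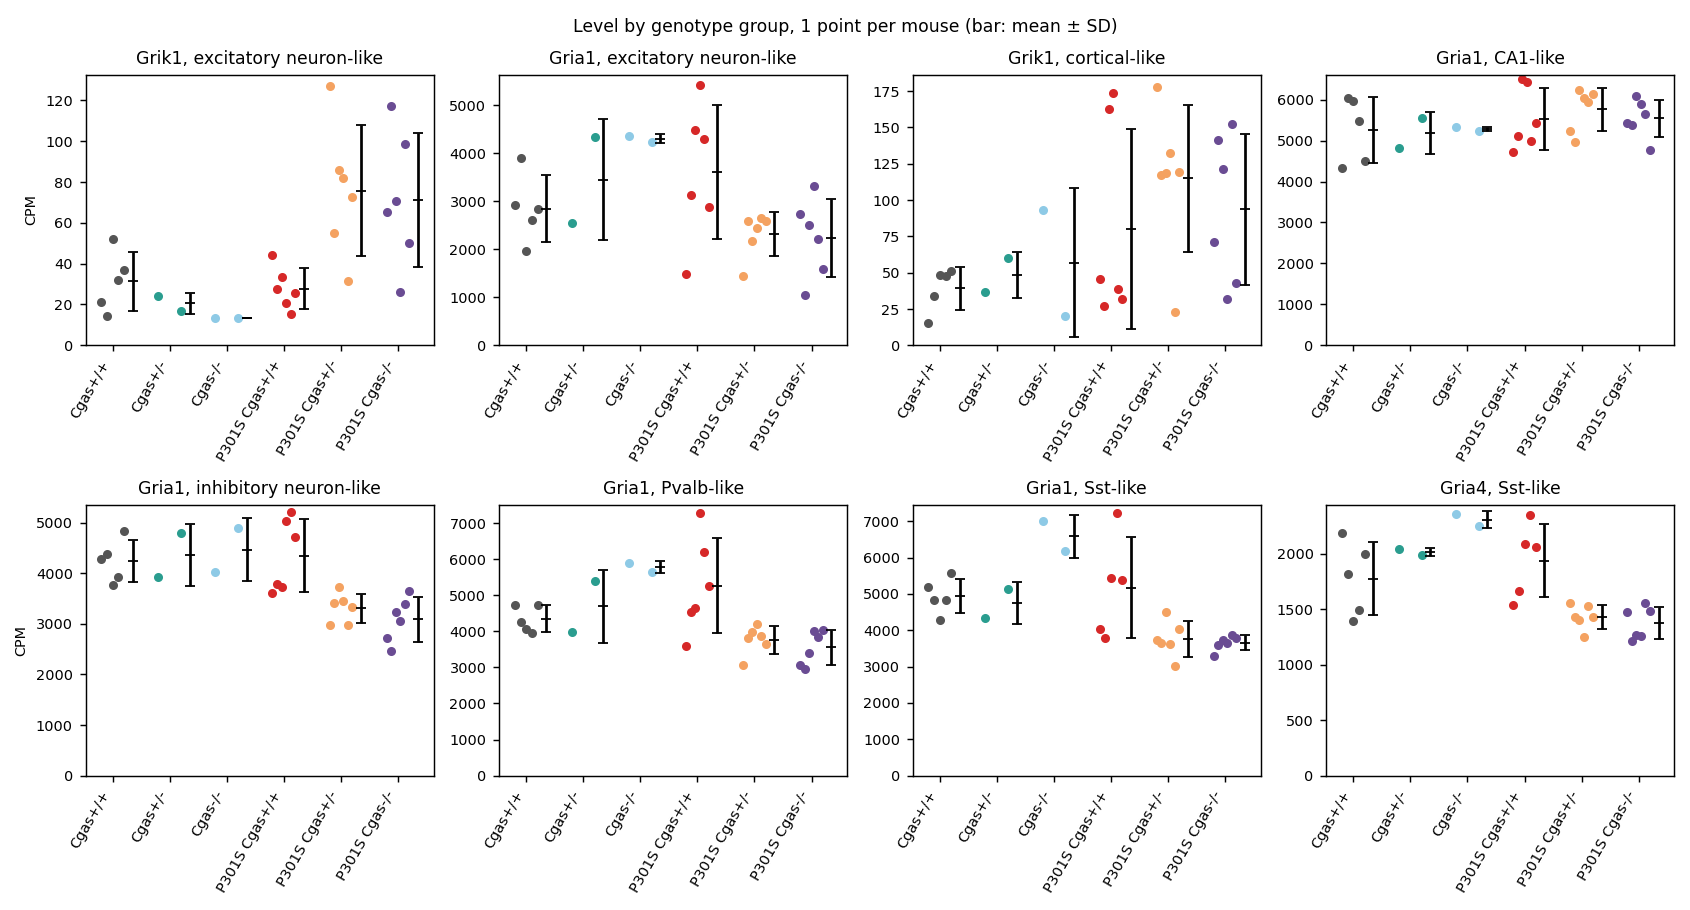
UMIs per 1000000 UMIs (CPM) of 8 pairs of a subunit and a class (panels) in the 6 genotype groups, with 1 point per mouse and the mean ± SD. Gria1 in Sst-like nuclei lies at 3288 to 3877 CPM in P301S Cgas-/- and 3782 to 7243 CPM in P301S Cgas+/+ mice, and Gria1 in CA1-like nuclei overlaps between all P301S groups.

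The other subunits of the excitatory pool had smaller folds than Grik1. Gria1 in excitatory nuclei ran from 1484 to 5419 CPM (median 3711) in P301S Cgas+/+, 1439 to 2657 CPM (median 2509) in P301S Cgas+/- and 1041 to 3314 CPM (median 2358) in P301S Cgas-/- mice. The groups overlapped, and the log2 fold change was -0.72 ± 0.276 for the deletion (edgeR adjusted p = 0.252). In CA1-like nuclei alone Gria1 read 4721 to 6505 CPM (median 5274), 4969 to 6247 CPM (median 5988) and 4777 to 6099 CPM (median 5549) in these groups. No subunit had an unadjusted p under 0.05 for the deletion in dentate granule-like, CA1-like or cortical-like nuclei. In CA3-like nuclei 2 of 8 subunits had one, Gria4 and Grik5, against 4.75% of all genes. Their differences in mean log2(CPM + 1) were -0.52 and 0.55, between 3 and 5 mice. For the heterozygous contrast 3 of 8 had one there (Gria3, Gria4 and Grik2), against 7.76% of all genes. The smallest edgeR adjusted p of a subunit in CA3-like nuclei was 0.953 and 0.533 in these contrasts. In the excitatory pool Grik2 and Grik4 had deletion folds of -0.41 and -0.43 and Grik3 of 0.70 ± 0.312 on the log2 scale, with edgeR adjusted p-values of 0.298 to 0.317. The remaining deletion folds there were -0.22 for Gria2, 0.04 for Gria3, 0.46 for Gria4 and -0.14 for Grik5. In the heterozygous contrast the excitatory folds were -0.68 for Gria1, -0.18 for Gria2, 0.10 for Gria3, 0.49 for Gria4, -0.33 for Grik2, 0.59 for Grik3, -0.40 for Grik4 and -0.07 for Grik5. In inhibitory nuclei Gria1 had folds of -0.55 for the deletion and -0.45 for the heterozygous contrast, and the other 8 subunits lay between -0.26 (Gria4) and 0.02 (Gria2) and between -0.25 (Grik1) and 0.08 (Gria3).

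Gria4 in excitatory nuclei did not separate the groups. It was 625.4, 325, 789, 611 and 700 CPM in Cgas+/+ mice, 209 to 854 CPM (median 398) in P301S Cgas+/+, 537 to 929 CPM (median 585) in P301S Cgas+/- and 396 to 856 CPM (median 641) in P301S Cgas-/- mice. These overlapped widely, and the exact permutation test gave p = 0.154 for the deletion, 0.117 for the heterozygous and 0.271 for the tau contrast. The deletion difference in mean log2(CPM + 1) was 0.58 in the pool. Within subtypes it was -0.35 in CA1-like, -0.52 in CA3-like, -0.16 in cortical-like and 0.06 in dentate granule-like nuclei. The Gria4 fold with the cortical-like share as a covariate is not given here, so the part of that share in the pooled value is not weighed.

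**Figure D4:**
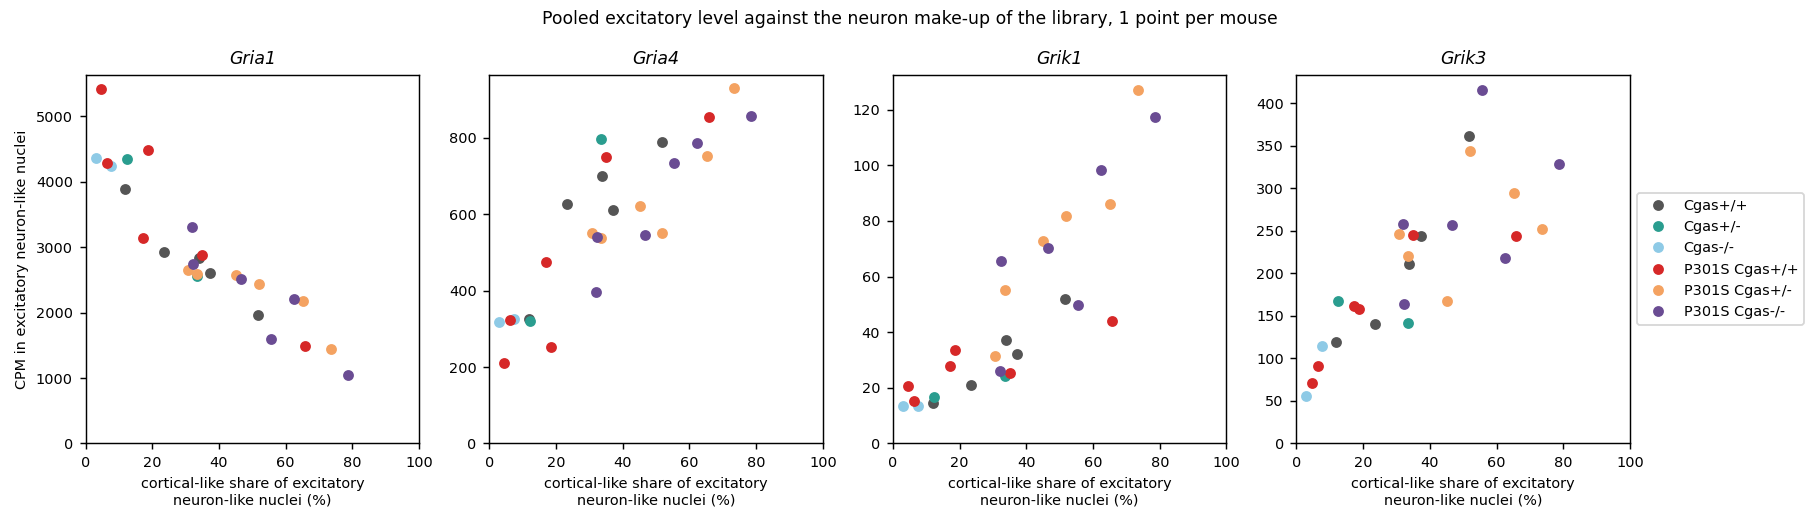
UMIs per 1000000 UMIs (CPM) of Gria1, Gria4, Grik1 and Grik3 in excitatory neuron-like nuclei against the cortical-like share of those nuclei in percent, with 1 point per mouse coloured by group. Mice with a cortical-like share near the lowest (2.998%) have the higher Gria1 levels and mice near the highest (78.6%) mostly the higher Gria4, Grik1 and Grik3 levels. Grik1 is 13.3 CPM at the lowest share and 117 CPM at the highest. P301S Cgas+/+ replicate 1, at a share of 65.7%, stays within the low Grik1 range given for its group in the text.

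In inhibitory nuclei the subunit with the smallest p was Gria1. It was 3926 and 4793 CPM in Cgas+/- and 4019 and 4899 CPM in Cgas-/- mice, within the range of the Cgas+/+ mice above or just past it. With the transgene it had the median of 4250 CPM given above in P301S Cgas+/+, 2971 to 3719 CPM (median 3367) in P301S Cgas+/- and 2459 to 3647 CPM (median 3148) in P301S Cgas-/- mice, so the groups with fewer Cgas copies overlapped P301S Cgas+/+ (3607 to 5213 CPM) by a narrow margin. The log2 fold change was -0.55 ± 0.137 for the deletion (edgeR adjusted p = 0.347) and -0.45 ± 0.137 for the heterozygous contrast (edgeR adjusted p = 0.533). The exact permutation test, run on this pair because its edgeR p was small, gave p = 0.00433 for each (0.0801 adjusted over the 74 tests). Within software versions it gave 0.00476 for each, and the deletion fold was -0.43 with the cortical-like share as a covariate.

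Pvalb-like nuclei, the fast-spiking interneurons, had the largest Gria1 fold of the interneuron classes tested. Gria1 there was 4733, 4265, 4053, 3945 and 4733 CPM in Cgas+/+, 3594 to 7287 CPM (median 4952) in P301S Cgas+/+, 3057 to 4199 CPM (median 3837) in P301S Cgas+/- and 2944 to 4023 CPM (median 3624) in P301S Cgas-/- mice. The Cgas-deficient P301S groups overlapped only the lower end of P301S Cgas+/+. In Cck-like nuclei, where the groups were not tested, Gria1 was 1515 to 2366 CPM in P301S Cgas+/+, 1076 to 2410 CPM in P301S Cgas+/- and 1157 to 1818 CPM in P301S Cgas-/- mice. Without the transgene, Gria1 in Pvalb-like nuclei was 3982 and 5407 CPM in the 2 Cgas+/- and 5904 and 5654 CPM in the 2 Cgas-/- mice. These 2 groups were not tested against the 5 Cgas+/+ mice in this class, and how many genes part 2 from 5 mice was not counted. Both Cgas-/- libraries carry software version 3.0.2. Their cortical-like shares were 2.998 and 7.58%. The log2 fold change was -0.62 ± 0.144 for the deletion (edgeR adjusted p = 0.147, DESeq2 0.0127) and -0.56 ± 0.144 for the heterozygous contrast (edgeR adjusted p = 0.178). Without P301S Cgas+/+ replicate 1, the mouse with 65.7% cortical-like excitatory nuclei, the deletion passed the threshold (edgeR adjusted p = 0.0175), as did the heterozygous contrast (edgeR adjusted p = 0.0355), and for the deletion, over all mice left out in turn the adjusted p ran up to 0.455. With the cortical-like share as a covariate the deletion fold was -0.39. Gria3, Gria4 and Grik3 in Pvalb-like nuclei had deletion folds of -0.28, -0.35 and -0.72 on the log2 scale, with edgeR adjusted p-values of 0.367 to 0.458.

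In Sst-like nuclei, interneurons that target dendrites, 3 subunits had an unadjusted p under 0.05 in both contrasts. The fit there held 5 P301S Cgas+/+ mice, since replicate 3 had 7 such nuclei. Gria1 read 4041, 3782, 5445, 7243 and 5380 CPM in those mice, 3020 to 4503 CPM (median 3698) in P301S Cgas+/- and 3288 to 3877 CPM (median 3692) in P301S Cgas-/- mice. The 2 lowest P301S Cgas+/+ mice lay within the range of P301S Cgas+/- and the lowest of them within that of P301S Cgas-/-, and the log2 fold change was -0.55 ± 0.142 for the deletion (edgeR adjusted p = 0.203). Leaving out 1 mouse moved the Gria1 deletion fold between -0.65 and -0.36, with edgeR adjusted p-values from 0.0339, without P301S Cgas+/+ replicate 1, to 0.854. With the cortical-like share as a covariate the fold was -0.48. Without the transgene, Gria1 in Sst-like nuclei was 4296 to 5581 CPM in Cgas+/+, 4337 and 5151 CPM in Cgas+/- and 7006 and 6170 CPM in Cgas-/- mice. These groups were not tested against each other in this class.

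Gria4 in Sst-like nuclei read 1542, 1661, 2088, 2346 and 2059 CPM in the 5 P301S Cgas+/+ mice, 1253 to 1560 CPM (median 1428) in P301S Cgas+/- and 1211 to 1560 CPM (median 1371) in P301S Cgas-/- mice. The overlap was a single P301S Cgas+/+ mouse. The log2 fold change was -0.53 ± 0.136 for the deletion and -0.48 ± 0.136 for the heterozygous contrast (edgeR adjusted p = 0.203 and 0.320). The exact two-sided permutation test gave p = 0.00433 for each, where the smallest that 6 against 5 mice allow is 0.00216. Adjusted over the 74 permutation tests, it was 0.0801 for each. Without P301S Cgas+/+ replicate 1 the Gria4 deletion passed the threshold (edgeR adjusted p = 0.0275), and over all mice left out in turn its fold ran from -0.62 to -0.41 and its adjusted p up to 0.854. With the cortical-like share as a covariate the deletion fold was -0.35. Without the transgene, Cgas+/+ mice spanned 1395 to 2185 CPM and the 2 Cgas-/- mice read 2361 and 2252 CPM, a difference that was not tested. The 2 Cgas+/- mice read 2040 and 1989 CPM, and the tau contrast of Gria4 gave an exact permutation p = 0.460.

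Grik4, the partner subunit that was highest in CA3-like nuclei, read 88.5, 174, 342, 205 and 153 CPM in Sst-like nuclei of P301S Cgas+/+ mice, 65.8 to 130 CPM (median 89.7) in P301S Cgas+/- and 49.4 to 115 CPM (median 80.7) in P301S Cgas-/- mice. Only the lowest P301S Cgas+/+ mouse was within the range of the others. The log2 fold change was -1.17 ± 0.319 for the deletion (edgeR adjusted p = 0.282) and -1.05 ± 0.317 for the heterozygous contrast (edgeR adjusted p = 0.403). Without P301S Cgas+/+ replicate 1 the Grik4 deletion fold was -1.38 (edgeR adjusted p = 0.0397), without replicate 4 it was -0.90, and with nuclei of over 4000 genes kept it was -0.61. It was -0.74 with the cortical-like share as a covariate. Without the transgene, Grik4 in Sst-like nuclei was 121 to 219 CPM in Cgas+/+, 137 and 244 CPM in Cgas+/- and 179 and 217 CPM in Cgas-/- mice, which overlapped. In Vip-like nuclei Grik4 had the opposite sign in the heterozygous contrast, with a difference in mean log2(CPM + 1) of 0.71. It was 1 of 3 of the 9 subunits there with an unadjusted p under 0.05, against 5.53% of all genes. The others were Gria3 (0.71) and Grik1 (-0.73), and the smallest edgeR adjusted p of a subunit was 0.885. For the deletion 1 subunit had one, Grik3 (-1.04).

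Markers of excitatory neurons within Pvalb-like and Sst-like nuclei had lower medians in the P301S groups with fewer Cgas copies. The summed level of 7 excitatory markers in Pvalb-like nuclei was 645 to 992 CPM (median 733) in P301S Cgas+/+, 541 to 746 CPM (median 642) in P301S Cgas+/- and 553 to 689 CPM (median 639) in P301S Cgas-/- mice, with 0 markers at 0. In Sst-like nuclei the range was 644 to 749 CPM (median 692), 408 to 721 CPM (median 630) and 577 to 784 CPM (median 631). In the same order of groups, 8 astrocyte markers had summed medians of 328, 384 and 376 CPM in Pvalb-like and 114.5, 119.5 and 91.8 CPM in Sst-like nuclei. The medians of 8 oligodendrocyte markers were 76.0, 72.8 and 81.2 CPM in Pvalb-like and 116.9, 100.5 and 96.6 CPM in Sst-like nuclei. The part of any of these markers in the Gria1, Gria4 and Grik4 values was not tested. Grik1 in inhibitory nuclei had medians of 2036, 1830 and 1986 CPM in these groups, and 2192 CPM in Cgas+/+ mice.

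Lamp5-like nuclei, where Grik1 was highest, read 2645 to 5044 CPM of Grik1 (median 3745) in P301S Cgas+/+, 1968 to 3255 CPM (median 2758) in P301S Cgas+/- and 2475 to 3639 CPM (median 3029) in P301S Cgas-/- mice. These overlapped, with log2 fold changes of -0.54 ± 0.143 for the heterozygous (edgeR adjusted p = 0.615) and -0.33 for the deletion contrast. Groups of the deletion contrast did not overlap for 1 of the 115 pairs, Gria3 in CA3-like nuclei, where 3.16% of all genes tested did not overlap between 3 and 5 mice (0.361% over all classes). Gria3 had medians of 747 CPM in the 3 P301S Cgas-/- and 630 CPM in the 5 P301S Cgas+/+ mice with enough nuclei, and its log2 fold change was 0.17 (edgeR unadjusted p = 0.245).

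**Figure D5:**
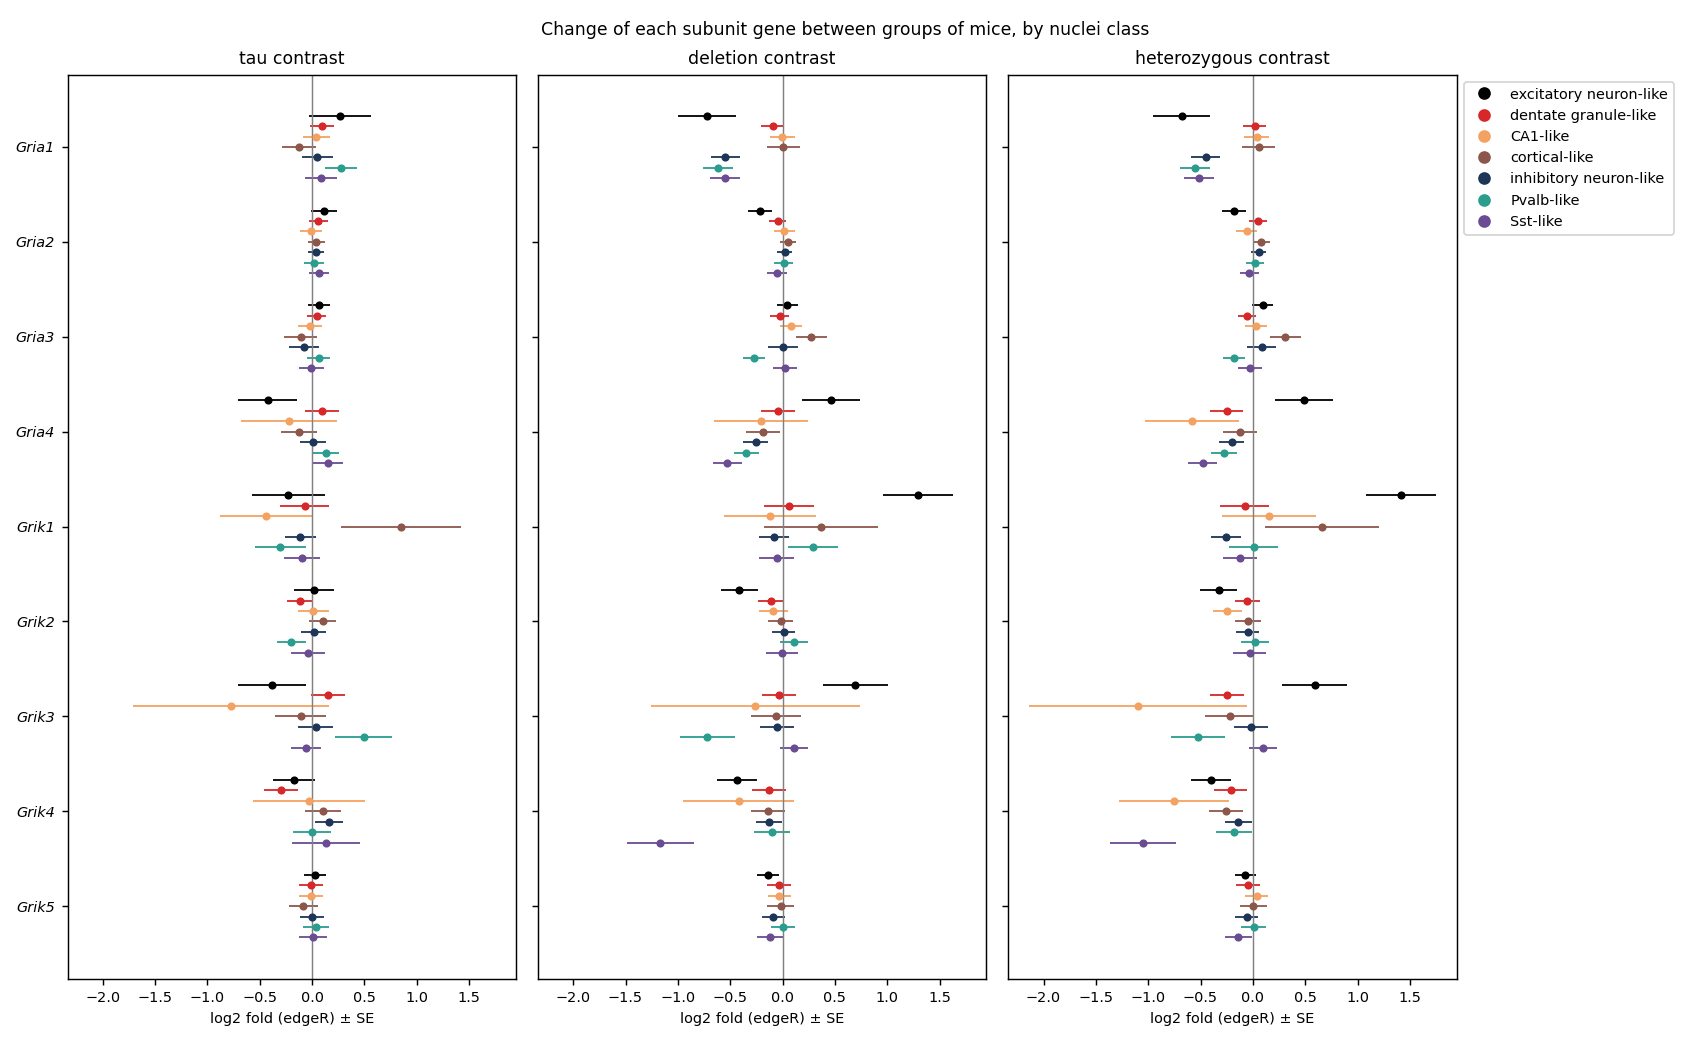
Fitted log2 fold change ± SE (edgeR) of the 9 subunits in 7 classes of nuclei for the tau, deletion and heterozygous contrasts. Grik1 in excitatory nuclei has the folds furthest above 0 (1.29 and 1.42) in the deletion and heterozygous contrasts and Grik4 in Sst-like nuclei folds of -1.17 and -1.05, and none of the 115 pairs per contrast was called by edgeR.

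The share of Gria2 among AMPA subunit UMIs in inhibitory nuclei was 8.55 to 10.3% in Cgas+/+, 7.93 to 11.6% (median 9.71) in P301S Cgas+/+, 11.1 to 13.4% (median 12.002) in P301S Cgas+/- and 9.83 to 16.1% (median 12.4) in P301S Cgas-/- mice. The first pair of groups overlapped, and the last pair lay mostly above them. No test was made on the shares, and they restate the levels given above: the Gria2 deletion fold in inhibitory nuclei was 0.02 on the log2 scale, while that of Gria1, the largest part of these UMIs, was -0.55.

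All 27 mice entered a fit that asked whether the Cgas-/- difference depended on the transgene, in excitatory and inhibitory nuclei. Both Cgas-/- libraries without the transgene carry software version 3.0.2, and the interaction was not fitted with the version as a covariate. Of 18 pairs 1 was called, Grik1 in excitatory nuclei, with an interaction of 2.64 ± 0.628 on the log2 scale (edgeR adjusted p = 0.0490). All genes were called at 0.844% in excitatory and 0% in inhibitory nuclei, and 9 of the 18 pairs (50%) had an unadjusted p under 0.05 against 14.2% of all pairs. The 2 Cgas-/- mice without the transgene read 13.3 and 13.4 CPM of Grik1 and had 2.998 and 7.58% cortical-like nuclei. With that share as a covariate the interaction was 0.91, and in hippocampal-like excitatory nuclei alone 0.48 (edgeR adjusted p = 1.0 for each). The call was lost in 21 of 30 alternatives, most of which left out a mouse, where the value ran from 2.39 to 2.91 and the adjusted p from 0.0197 to 0.404. Gria1, Gria4 and Grik3 had interactions of -1.49, 1.54 and 1.95 in the same nuclei, with edgeR adjusted p-values of 0.0822, 0.113 and 0.0781. Gria2, Gria3, Grik2, Grik4 and Grik5 had interactions of -0.60, -0.16, -0.89, -0.85 and -0.35 there, and in inhibitory nuclei the 9 subunits lay between -0.66 (Gria1) and 0.20 (Gria3).

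Females were compared with males in the 23 mice. Of 115 pairs 0 were called by edgeR and 18 (15.7%) had an unadjusted p under 0.05, near the 15.6% of all pairs. All genes were called at 7.81% in excitatory, 2.71% in inhibitory, 4.1% in dentate granule-like, 1.95% in CA1-like, 0.815% in CA3-like, 4.27% in cortical-like, 0.479% in Pvalb-like, 0.618% in Sst-like, 0.41% in Vip-like, 0.5% in Lamp5-like, 1.97% in astrocyte-like, 1.11% in oligodendrocyte progenitor-like and 1.75% in oligodendrocyte-like nuclei. The pair closest to the threshold was Grik5 in astrocyte-like nuclei, with medians of 135 CPM in 11 females and 114 CPM in 12 males and a log2 fold change of 0.29 ± 0.079 (edgeR adjusted p = 0.0538, DESeq2 0.0245). All females were processed under software version 3.1.0, and with the version as a covariate this Grik5 fold was 0.16 (edgeR adjusted p = 0.526). The X-linked Gria3 was called in 0 of 13 classes, with sex folds of -0.03 in excitatory and -0.07 in inhibitory nuclei. The other excitatory sex folds were 0.36 for Gria1, -0.02 for Gria2, -0.41 for Gria4, -0.28 for Grik1, 0.16 for Grik2, 0.12 for Grik3, 0.15 for Grik4 and 0.19 for Grik5, and those in inhibitory nuclei ran up to 0.23 (Grik1).

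A further 34 genes in 5 lists serve these receptors: 12 auxiliary subunits of AMPA receptors, 2 auxiliary subunits of kainate receptors (Neto1 and Neto2), 15 genes of receptor assembly, scaffolds and trafficking, 3 RNA editing genes and the 2 delta receptors. Of 387 pairs of a gene and a class per contrast, 0 were called by edgeR for tau, 0 for the deletion and 0 for the heterozygous contrast, as were 0 of 67 pairs for the interaction. The smallest p-values in excitatory nuclei belonged to Cnih3, a cornichon that slows AMPA channel closing (deletion -0.58 ± 0.143 on the log2 scale, edgeR adjusted p = 0.187), and to Abhd6, a hydrolase that limits AMPA receptor delivery (deletion -0.26, heterozygous -0.24), with Dlg1, a scaffold of the Dlg4 family, at 0.45 in the heterozygous contrast (edgeR adjusted p = 0.235). In inhibitory nuclei they belonged to Cnih3 (deletion -0.59), to the TARP Cacng4, which helps to carry AMPA receptors to the membrane (deletion -0.69, heterozygous -0.63), and to the auxiliary subunit Shisa6 (heterozygous -0.53), with edgeR adjusted p-values of 0.516 to 0.615. For the interaction these were Cnih3 (-0.91) and the fusion ATPase Nsf (-0.64) in excitatory nuclei, with edgeR adjusted p-values of 0.0616 and 0.0744, and Neto2 (0.86) and Cnih3 (-0.86) in inhibitory nuclei. In the tau contrast Gsg1l (-0.37) and Akap5 (-0.23) in excitatory and Neto2 (-0.29) and Cacng3 (0.22) in inhibitory nuclei came first, each at an edgeR adjusted p of at least 0.9997. The median of the 12 AMPA auxiliary subunits in excitatory nuclei was -0.21 for the deletion, against 0.01 over all genes. These groups had median cortical-like shares of 17.9 and 51.0%, and within classes the median of the auxiliary subunits was -0.16 in cortical-like, 0.05 in dentate granule-like and 0.08 in CA1-like nuclei.

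Between the sexes 16 of the 387 pairs (4.13%) were called, over 9 genes, against 2.73% of all gene and class pairs. All 16 were higher in females, as were 1060 of the 3863 calls over all genes. The postsynaptic scaffold Dlg4 was called in excitatory (log2 fold change 0.40, edgeR adjusted p = 0.00451), dentate granule-like (0.26) and CA1-like nuclei (0.36), and Abhd6 in excitatory (0.33) and inhibitory nuclei (0.29). The TARPs were Cacng2 in dentate granule-like (0.40), Cacng8 in cortical-like (0.35) and Cacng4 in oligodendrocyte progenitor-like nuclei (0.26). The other auxiliary subunits were Shisa7 in excitatory (0.41), cortical-like (0.30) and oligodendrocyte-like nuclei (0.49) and Gsg1l in CA1-like nuclei (0.98). Olfm1, a secreted AMPA receptor interactor, was called in dentate granule-like (0.41) and CA3-like nuclei (0.71), and Nptx1, a pentraxin that gathers AMPA receptors, in dentate granule-like (0.41) and CA1-like nuclei (0.57). With software version as a covariate 0 of these 16 were called, all kept a positive fold, and the smallest adjusted p was 0.0962.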

How the data were processed

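Single nuclei of frozen hippocampi had been sequenced with 10x Chromium 3′ v3 kits. The authors aligned reads to mm10 with Cell Ranger 3.1.0, counting pre-mRNA reads and calling barcodes, and deposited raw UMI counts per gene and barcode. The file headers name software version 3.0.2 or 3.1.0. The annotation release is not given in the sources used here.

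Kept nuclei had 200 to 4000 genes and no more than 5% of UMIs from mitochondrial genes, and those scored most doublet-like were removed at 0.8% per 1000 barcodes. Clustering used 2000 variable genes without the 9 subunits and the listed related genes, 30 principal components, 15 neighbours and the Leiden method at resolution 1. Clusters were named from fixed markers, and low-confidence ones stayed unnamed. The limit on the score of a competing name was set after cluster names and leading genes had been seen. No subtype was named for 15382 excitatory and 3016 inhibitory neuron-like nuclei. UMIs were summed per mouse and class. Classes with fewer than 10 nuclei in a mouse were left out for it, which dropped 5 mice from CA3-like and 1 each from Sst-like and Lamp5-like nuclei (a limit set after nuclei were counted).

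Sums were tested with edgeR 4.0.16 (R 4.3.3; TMM, filterByExpr, robust quasi-likelihood fit, sex as covariate) on 23 mice, leaving out the 2 groups of 2 mice as the study did, and on all 27 for the interaction. SE is the log2 fold change divided by the root of F. DESeq2 1.42.0 was an alternative. Single values were compared by an exact two-sided permutation test of log2(CPM + 1). It was run only for pairs with an unadjusted edgeR p under 0.05 and for Gria4, which the study names. The fits were tested on simulated data. Alternatives changed normalization, filters, doublets, covariates, clustering and the mice used. The cortical-like share, the software version and the nuclei limit as settings were added after the data were seen. The members, lists and tests were chosen with earlier results of these data known. All 9 subunits are named in each comparison in excitatory or inhibitory nuclei, as are list genes that were called or, with none called, the 2 of smallest p in excitatory and inhibitory nuclei. P-values measure the spread between mice, 1 library each. Positions come from GENCODE vM21 on GRCm38, the assembly of mm10. The genes most like Grik5 are not reported here.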

Additional observations from a re-analysis of the deposited data

Results flagged for a closer look

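Within a genotype group, 115 sets of 4 to 6 mice were searched for a mouse far from the others by Dixon's criterion, and 2 were found, where chance alone would give about 1 in 20 sets, or 5.75. Gria3 in excitatory neuron-like nuclei was 1226 CPM in P301S Cgas+/- replicate 1, the mouse with 96 hippocampal-like nuclei, and 845.7 to 922.6 CPM in the other 5 mice of that group. Grik2 in inhibitory neuron-like nuclei was 2012 CPM in P301S Cgas-/- replicate 3 and 2435 to 2513 CPM in the other 5.

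The difference between P301S Cgas-/- and P301S Cgas+/+ mice in Grik1 of excitatory neuron-like nuclei differed from that between Cgas-/- and Cgas+/+ mice without the transgene in the reported fit, by a tested interaction of 2.64 on the log2 scale (edgeR adjusted p = 0.0490). The call was lost in 21 of 30 alternatives. Leaving out 1 mouse gave adjusted p-values up to 0.404, and with the cortical-like share as a covariate or in hippocampal-like nuclei alone the interaction was 0.91 and 0.48 (edgeR adjusted p = 1.0 for each). The groups without the transgene had 2 and 5 mice, and the median cortical-like share of excitatory nuclei was 5.29% in Cgas-/-, 33.9% in Cgas+/+, 17.9% in P301S Cgas+/+ and 51.0% in P301S Cgas-/- mice.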

How the results depend on the processing

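Of 1079 comparisons of a value with its alternative, 976 kept direction and side of the threshold or stayed within the spread, 38 newly passed the threshold, 21 lost it, 42 moved and 2 reversed. The tau contrast had 0 called pairs under every alternative run. DESeq2 gave 3 called pairs for the deletion, 3 for the heterozygous contrast, 1 for sex and 4 for the interaction, and no low-count filter gave 4, 5 and 1 for the first 3 of these. With nuclei of over 4000 genes kept, sex gave 1 (Grik5 in CA3-like nuclei). Leaving out each mouse in turn gave 0 to 4 calls for the deletion and 0 to 1 for the heterozygous contrast (4 and 1 without P301S Cgas+/+ replicate 1), 0 to 2 for sex (2 without P301S Cgas+/+ replicate 5) and 0 to 5 for the interaction (5 without Cgas+/+ replicate 2 or P301S Cgas+/+ replicate 1). The cortical-like share as a covariate, or hippocampal-like nuclei alone, gave 0 for the interaction, and in the latter the interactions of Gria4 (-0.0189) and Grik3 (-0.13) reversed. For the other changed values the cause was not tested. Clustered at resolution 2, Gria3 was 557 CPM and Grik3 103 CPM in inhibitory neuron-like nuclei, and interneuron subtypes that could not be named from their markers there gave no value. Per kilobase of gene, the Gria2 share was 45.9% in excitatory and 24.5% in inhibitory nuclei. No paired analysis was possible because the labels carry no replicate numbers, and the numbers used in the text, given in sample order, only name mice. Depth left Grik3 untested in CA3-like and Lamp5-like nuclei, where it was under the count filter.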
